A study of Solanum tuberosum with 100 samples.

Results

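The polyphenol oxidase family was followed through 100 samples of bruised potato tuber. Its members were the 6 genes that the study annotated as polyphenol oxidase or catechol oxidase in its list of candidate genes from the literature and that had a row in the deposited count table, out of 9 such genes in that list and 25163 genes in the table. The other 3 polyphenol oxidase genes of the list were not analysed here. The list chose the members by annotation, but a row in the table also required counts, since each gene of the table had 5 or more reads in at least 5 samples. PPOB met this with exactly 5 samples, 4 of them from cross 2155, while the other members met it in 59 to 100 samples. They are COB (PGSC0003DMG400029575, annotated as catechol oxidase B, chloroplastic), PPO576 (PGSC0003DMG400029576, polyphenol oxidase), PPOB (PGSC0003DMG400018925, polyphenol oxidase B, chloroplastic), POT32 (PGSC0003DMG400018916, polyphenol oxidase isoform POT32), PPOA (PGSC0003DMG400018917, polyphenol oxidase A, chloroplastic) and PPO914 (PGSC0003DMG400018914, polyphenol oxidase). All 6 were placed on chromosome 8 of the PGSC-DM genome by the study's list, in the order COB, PPO576, PPOB, POT32, PPOA and PPO914. The list gives POT32 and PPOA the same rounded position, so it does not settle the order of this pair. PPO576 and PPO914 are working names made here from the last digits of their identifiers.

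Polyphenol oxidases are copper enzymes of the plastid that oxidise phenols, such as chlorogenic acid and tyrosine in the tuber, to quinones. The quinones polymerise into the dark melanin pigments of a blackspot bruise. The enzymes and the phenols, most of which are held in the vacuole, meet when cells are crushed, and the amount of enzyme present at that moment has long been studied as a factor of tuber discolouration. In potato the enzymes are encoded by several closely related genes.

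Each sample was 1 progeny genotype of a tetraploid half-sib panel, from 1 of 11 crosses with Crop52 as a common parent. Tubers were bruised by a falling lead weight, and tissue from the impact site of 3 tubers of 1 plant replicate was pooled 2 h later. The 33 samples of the high-bruising group had a mean score of 2 or more over the 3 pooled tubers, the 41 samples of the low-bruising group had a mean score of 1 or less, and the 26 intermediate samples had scores between these limits. The second parents were V390 (cross 2121), Admiral (2155), Dolce Vita (2158), Driver (2159), Crop18 (2165), Moonlight (2168), Red Rascal (2170), Summit Russet (2172), Crop9 (2175), Crop37 (2177) and Crop58 (2183). Each genotype was sequenced once and no unbruised tuber was sequenced, so the spread within a group holds differences between genotypes, plants and libraries, and a level before the impact cannot be told apart from a response to it. The tissue was bulk tuber, in which fewer cells of a type and less RNA per cell cannot be told apart. RNA was measured, not the amount or activity of the enzymes. Bruises were scored the day after the impact, later than the RNA was taken.

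Total counts ran between 6832655 and 30655033 in the high-bruising group, between 8065444 and 37849041 in the low-bruising group and between 7774698 and 41650152 in the intermediate samples. The crosses differed in their make-up. High-bruising samples numbered 7 against 2 low-bruising ones in cross 2165 and 6 against 1 in cross 2121, while crosses 2170 and 2183 had 0 high-bruising samples against 7 and 4 low-bruising ones. The tissue label was checked with 5 patatin genes, which encode the storage protein of the tuber. The 4 genes PAT1-K1, PAT2-K4, PAT0409 and PATO had at least 22.5 CPM in every sample, with medians of 224 to 1158 CPM over the 100 samples, and PAT3 had a median of 3.39 CPM.

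Levels are given as CPM, the count of a gene relative to the total count of its library after TMM scaling. They were not divided by gene length, so a level of one gene above that of another says which gave more reads. The counts came from uniquely aligned reads, so reads that fitted several near-identical copies were not counted, and the division of reads between copies is uncertain to that extent.

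The family was read mostly from 3 copies. COB, PPO576 and POT32 together took most of the 112422 reads of the family, with pooled shares of 42.7%, 35.7% and 17.0%. PPO914 took 3.24%, PPOA 1.28% and PPOB 0.06%.

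COB had reads in each of the 100 samples. Its level ran from 1.96 to 185 CPM over the high-bruising samples, with a median of 12.4, from 1.30 to 114 CPM over the low-bruising samples, with a median of 18.4, and from 0.987 to 63.9 CPM over the intermediate samples, with a median of 21.2. The groups overlapped over nearly the whole range. Its mean and median were ordered differently between the groups, with a mean of 26.3 ± 38.0 CPM in the high-bruising group and 23.5 ± 20.9 CPM in the low-bruising group (SD, n = 33 and 41). The highest level was that of a high-bruising genotype, progeny 12 of cross 2159.

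PPO576 varied most within crosses on the log2 scale among the 6 members, while COB reached the highest CPM. Its lowest, median and highest levels were 0, 6.13 and 124 CPM in high-bruising samples, 0.190, 7.51 and 92.9 CPM in low-bruising samples, and 0.0961, 16.6 and 83.6 CPM in intermediate samples. Levels under 1 CPM were found in 7 of 33 high-bruising, 9 of 41 low-bruising and 5 of 26 intermediate samples, and levels of 10 CPM or more in 13, 17 and 16 samples of these groups. The gene was thus near the limit of detection in some genotypes and the leading copy in others of each group. Its 2 samples with no read were both high-bruising, progeny 9 of cross 2121 and progeny 2 of cross 2168.

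POT32 was detected in each sample. Its lowest, median and highest levels were 0.367, 6.49 and 71.9 CPM in high-bruising samples, 0.373, 4.89 and 83.0 CPM in low-bruising samples, and 0.998, 4.58 and 35.3 CPM in intermediate samples. The ranges of the groups again covered each other.

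PPO914 and PPOA were low in most samples. PPO914 had a median of 0.585 CPM in high-bruising samples (0 to 18.4), 0.979 CPM in low-bruising samples (0 to 7.66) and 1.09 CPM in intermediate samples (0 to 18.7). PPOA had a median of 0.522 CPM in high-bruising samples (0 to 4.19), 0.237 CPM in low-bruising samples (0 to 4.83) and 0.357 CPM in intermediate samples (0 to 3.00). PPOA had no read in 20 samples and PPO914 in 6, and a median PPOA level rested on 6.5 reads over all samples, so single values of these genes carry a large counting error.

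PPOB was barely detected. It had 62 reads in all, and 83 samples had none, of which 26 were high-bruising, 36 low-bruising and 21 intermediate. The highest level was 0.388 CPM in the high-bruising group, 0.485 CPM in the low-bruising group and 0.502 CPM in the intermediate samples.

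**Figure D1:**
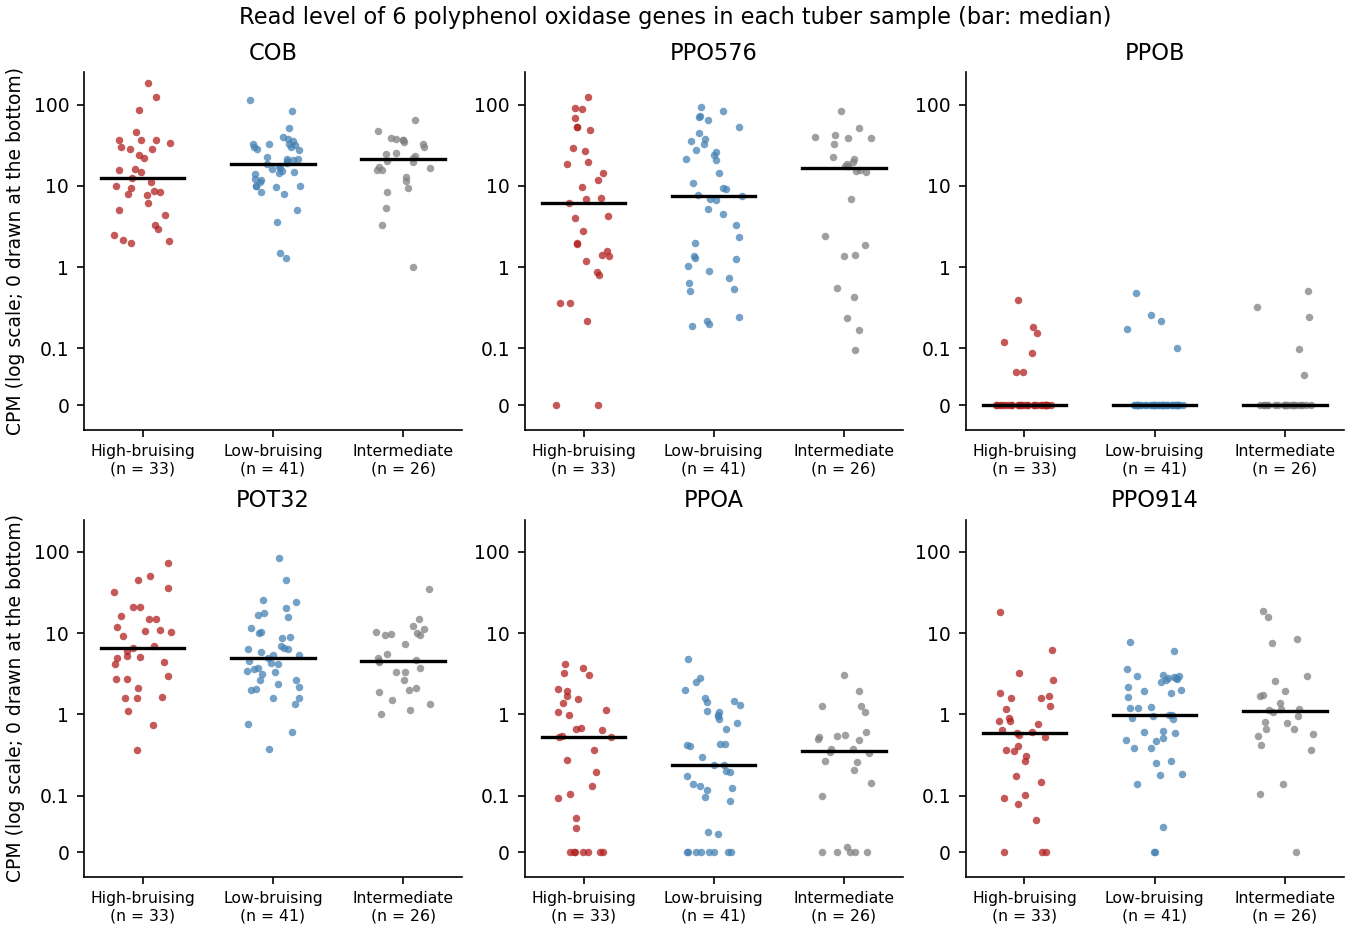
CPM of each of the 6 genes (log axis, values of 0 drawn at the bottom) in each high-bruising, low-bruising and intermediate sample, 1 point per sample, with the group median as a bar. The clouds of the 3 groups overlap for each gene, and PPO576 spreads from 0 to 124 CPM.

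The first comparison asked whether members differed between high- and low-bruising tubers. None of the 6 members passed the threshold (edgeR's quasi-likelihood test, adjusted p under 0.05), where 0.183% of all 25163 genes did, and none had an unadjusted p under 0.05, where 12.4% of all genes did. DESeq2 and limma-voom also called 0 of 6.

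COB differed by 0.16 on the log2 scale (SE 0.32, edgeR adjusted p = 0.886, 95% interval -0.48 to 0.81). The 95% interval, as a ratio of high-bruising over low-bruising, ran between 0.716 and 1.76. PPO576 differed by 0.11 (SE 0.52, edgeR adjusted p = 0.958), with an interval of the ratio between 0.526 and 2.22. A difference of this size in either direction thus lay within the error for the most variable copy.

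POT32 and PPOA had the largest fitted differences, each 0.45 on the log2 scale. That of POT32 had an SE of 0.38 (edgeR adjusted p = 0.671, 95% interval -0.30 to 1.20) and that of PPOA an SE of 0.48 (edgeR adjusted p = 0.761, 95% interval -0.51 to 1.41). PPOB differed by 0.39 (SE 0.50, adjusted p = 0.807 with edgeR), from 23 reads in high-bruising and 15 in low-bruising samples. PPO914 differed by -0.14 (SE 0.42, edgeR adjusted p = 0.933). With edgeR the median over the 6 members, PPOB included, was 0.28, against 0.00 over all genes tested. It was not computed for the other tools. In pairs of a high- and a low-bruising sample, the high-bruising one had the higher CPM in 42.4% of pairs for COB, 48.6% for PPO576, 56.9% for POT32, 54.8% for PPOA and 36.4% for PPO914, with ties counted by equal parts. For COB, PPO914 and, by a small margin, PPO576, most pairs thus had the higher value in the low-bruising sample.

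The sign of the COB and PPO576 differences changed with the tool. With limma-voom, COB differed by -0.35 and PPO576 by -0.24, neither past the threshold. PPO914 differed by -0.79 with limma-voom (unadjusted p = 0.0898, adjusted p = 0.531), further from 0 than with edgeR. PPOB, POT32 and PPOA differed by 0.32, 0.37 and 0.29 with limma-voom. With edgeR, the value of PPO914 was -0.90 without cross 2159 (unadjusted p = 0.0277, edgeR adjusted p = 0.334).

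With cross as a term, which sets high- against low-bruising full siblings of the same cross, again 0 of 6 members passed. By this test 0% of all genes passed, and 5.34% had an unadjusted p under 0.05, among them none of the members. DESeq2 and limma-voom with cross as a term called 0 of 6 as well. The fitted difference of POT32 was -0.00 (SE 0.30, edgeR adjusted p = 1.00), against 0.45 without the term. The differences of PPO576 (0.65, SE 0.53), PPOB (0.69, SE 0.53), PPOA (0.62, SE 0.51) and COB (0.33, SE 0.28) were positive and that of PPO914 (-0.31, SE 0.36) negative, each within 2 SE of 0.

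The crosses went both ways. Of the 9 crosses with samples of both groups, PPO576 had the higher mean log2 CPM in the high-bruising samples in 5 and the lower in 4, and so did COB and PPOA. POT32 and PPO914 were higher in 3 and lower in 6. PPO576 showed the widest disagreement. In cross 2177 it had 48.7 and 124 CPM in the 2 high-bruising samples, against 0.905 and 0.534 CPM in the 2 low-bruising samples. In cross 2165 it lay between 0.219 and 14.3 CPM in 7 high-bruising samples (median 4.31), against 0.190 and 0.199 CPM in 2 low-bruising samples. The lowest high-bruising sample there had 3 reads and the 2 low-bruising samples 4 and 6, so their order is within counting error. In cross 2121 the order was reversed, with 0 to 26.6 CPM in 6 high-bruising samples (median 1.56) and 35.8 CPM in the only low-bruising sample. In cross 2159, the cross with the most samples, the 5 high-bruising samples had 1.56, 52.9, 67.8, 88.7 and 89.5 CPM, against 0.245 to 92.9 CPM in 7 low-bruising samples (median 21.0). High- and low-bruising samples did not overlap for PPO576 in 4 of the 9 crosses, in 3 of which the high-bruising samples were the higher, and 2.5% of all genes had as many such crosses in either direction. The other members had 0 to 2 such crosses. The 3 crosses of PPO576 include cross 2165, where the separation rested on the few reads given above. Over the 6 members and 9 crosses, 9 of 54 cases (16.7%) did not overlap, against 14.5% over all genes. PPOB gave 0 of the 9. It was at 0 CPM in both groups of crosses 2165, 2172, 2175 and 2177, where it could not separate. The share over all genes was near 30% in the crosses with 2 samples against 2 (30.2% in cross 2172 and 30.3% in cross 2177). Whether the difference varied between crosses was tested with an interaction of group and cross (8 coefficients, 63 samples), which was chosen after seeing the data. No member passed, and PPO576 had the smallest p (p = 0.0576, edgeR adjusted p = 0.909), in a test that called 4 of all genes.

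The bruising score was then used as a number over all 100 samples. None of the 6 members had a slope past the threshold on the mean score of the tubers that gave the RNA, where 3.11% of all genes did, and none had an unadjusted p under 0.05 (18.5% of all genes). The slopes lay between -0.13 per score point for PPO576 (SE 0.26, edgeR adjusted p = 0.844) and 0.26 for PPOB (SE 0.31, edgeR adjusted p = 0.704). That of COB was -0.06 (SE 0.15), that of POT32 0.11 (SE 0.16), that of PPOA 0.02 (SE 0.23) and that of PPO914 -0.04 (SE 0.23).

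The second plant replicate of each genotype was scored but not sequenced, and its score was given for 99 of the genotypes. No member had a slope past the threshold on this score either, where 3.62% of all genes did. COB came closest, falling by 0.34 on the log2 scale per score point (SE 0.13, unadjusted p = 0.0126, edgeR adjusted p = 0.130, 95% interval -0.61 to -0.07). It was the only member with an unadjusted p under 0.05, a level that 18.7% of all genes reached. With limma-voom the COB slope was -0.31 (adjusted p = 0.222), and with cross as a term the 2 slopes of COB were 0.05 on the own score and -0.13 on the other replicate's, neither past the threshold. PPOB had 0.38 (SE 0.23), POT32 0.13 (SE 0.17), PPO576 -0.20 (SE 0.23), PPOA -0.02 (SE 0.21) and PPO914 -0.10 (SE 0.21).

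**Figure D2:**
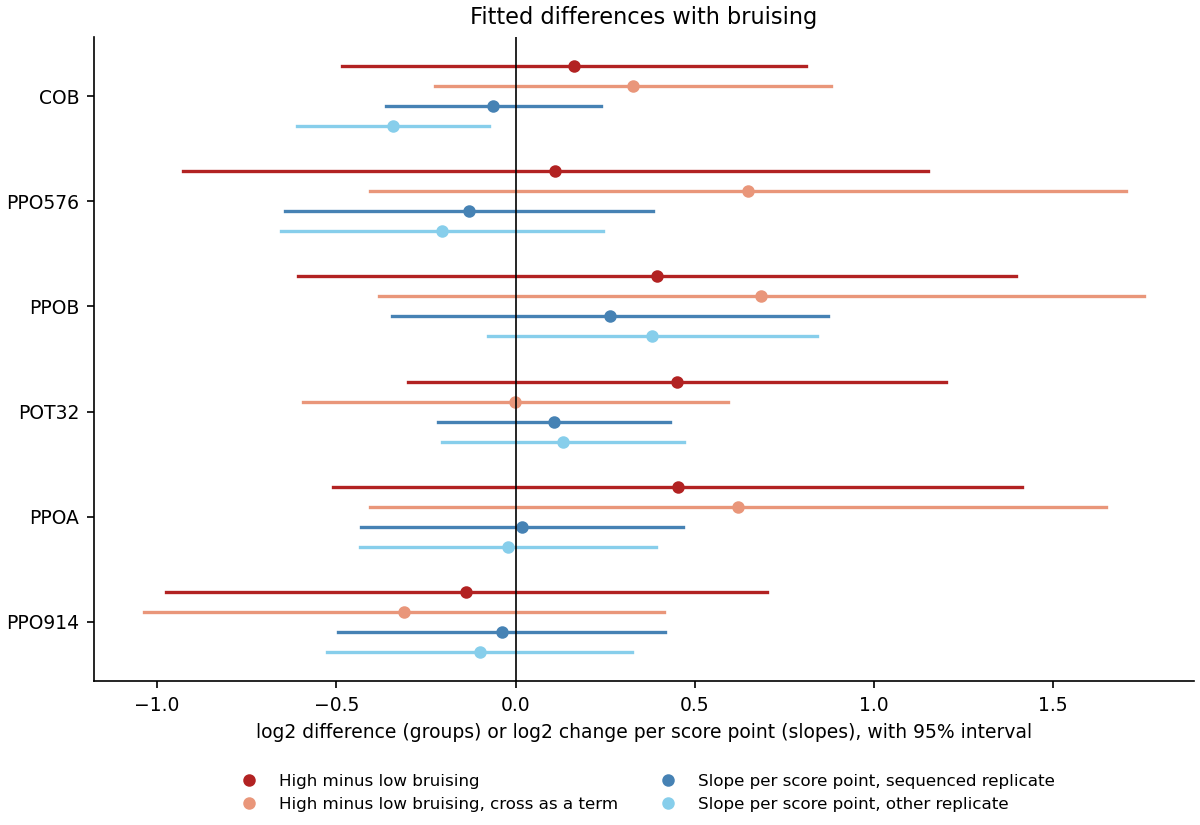
Fitted log2 difference of high- minus low-bruising samples, without and with cross as a term, and fitted log2 change per score point of the sequenced and of the other replicate, with 95% intervals, for each gene. Of the 24 intervals, only that of COB on the score of the other replicate lies on one side of 0.

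Between crosses, by contrast, each of the 5 members other than PPOB differed, in a test that 67.1% of all genes passed and in which 70.5% had an unadjusted p under 0.05 (edgeR's quasi-likelihood test over the 11 crosses). The adjusted p was 4.46e-08 for PPO914, 2.23e-07 for POT32, 2.81e-06 for COB, 0.000255 for PPO576 and 0.000825 for PPOA. No p is given for PPOB, which has a row in the table mainly through the samples of cross 2155, where it is high. The share of the variance of log2 CPM that lay between crosses was 43.6% for PPO914, 40.9% for COB, 39.1% for POT32, 30.6% for PPOA and 24.2% for PPO576, against a median of 24.8% over all genes and 29.3% over those with a mean of at least 1 CPM. PPO576 was below both medians and PPOA close to the second. Most of the variance of each of these 5 members thus lay between full siblings of the same cross.

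COB had its highest medians in crosses 2159 and 2158. In cross 2159 it lay between 12.8 and 185 CPM (median 34.3, n = 16) and in cross 2158 between 15.4 and 123 CPM (median 32.3, n = 13). Its lowest median was in cross 2168, with 0.987 to 14.7 CPM (median 6.13, n = 7), a ratio of 5.60 between the outer medians. Next to it came crosses 2155 (median 9.23), 2172 (9.28) and 2165 (9.52). From there the medians went through 13.8 CPM in cross 2175, 15.8 in 2121, 16.4 in 2170, 17.3 in 2183 and 28.0 in 2177. Neighbours in this order overlapped in each of 10 cases, and of all 55 pairs of crosses 53 overlapped. Overlapping pairs of crosses were not counted over all genes, so these counts have no background, here and for the other members.

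PPO576 had its highest median in cross 2183, where 4 of 5 samples, all low-bruising, had 65.1, 69.5, 71.8 and 83.1 CPM and the intermediate sample had 6.84 CPM. Crosses 2159 (median 41.2 CPM), 2177 (27.0), 2158 (23.7) and 2175 (20.6) followed, and the lowest median was in cross 2165, with 0.190 to 14.3 CPM (median 1.38, n = 9). The other medians were 7.14 CPM in cross 2170, 4.12 in 2155, 3.28 in 2168, 2.81 in 2172 and 1.93 in 2121. Within crosses the range was wide nearly everywhere. In 7 of the 11 crosses, at least 1 sample was under 1 CPM and at least 1 was at 10 CPM or more. In cross 2159 the lowest and highest sample differed 967-fold, from 2 reads in the lowest. The SD of log2 CPM within crosses was 2.47, above that of 99.7% of the 17200 genes with a mean of at least 1 CPM, whose median was 0.387. All 55 pairs of crosses overlapped. COB (SD 1.15), POT32 (1.29) and PPO914 (1.35) were above 93.8%, 95.4% and 96.0% of those genes. These SDs include counting error, which is larger at low counts, and the genes compared were not matched on level. PPO914 had a median of 16 reads per sample.

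POT32 had its highest median in cross 2159, with 3.31 to 83.0 CPM (median 16.5), followed by crosses 2158 (9.35), 2168 (9.27) and 2165 (6.49). In cross 2165 it ran up to 71.9 CPM and in cross 2168 up to 49.8 CPM, each in a high-bruising genotype. The lowest medians were in crosses 2170 (1.89 CPM, range 0.373 to 6.98), 2183 (1.99, range 0.600 to 9.87) and 2175 (2.25, range 1.61 to 4.61). Crosses 2170 and 2183 were those with no high-bruising sample, and in cross 2165 they were 7 of 9 samples. Not all crosses followed this order. High- against low-bruising samples numbered 5 against 7 in cross 2159 and 2 against 6 in cross 2158. In cross 2121 they numbered 6 against 1, at a median of 5.16 CPM. The group and the cross could not be fully told apart for POT32, whose difference was 0.45 without and -0.00 with cross as a term. All 55 pairs of crosses overlapped.

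**Figure D3:**
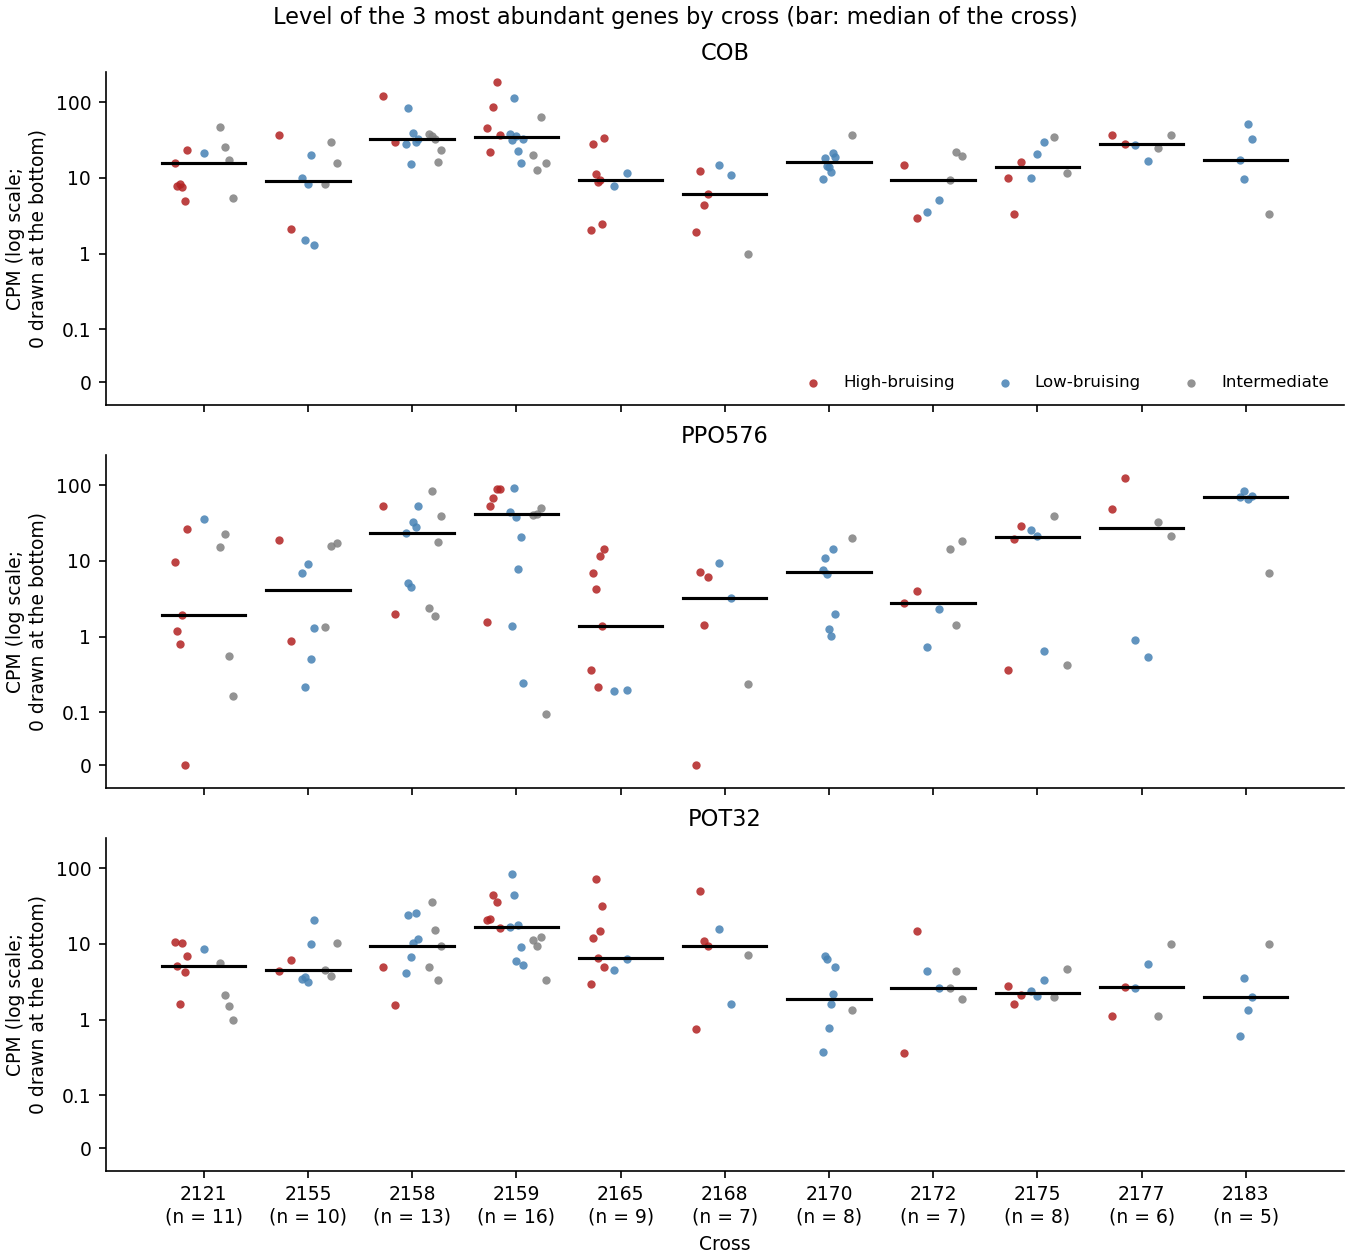
CPM of COB, PPO576 and POT32 (log axis, values of 0 drawn at the bottom) by cross, 1 point per sample coloured by bruising group, with the median of the cross as a bar. The highest and lowest PPO576 levels of a cross differ between 12.2-fold and 967-fold (median 75.2) in the 9 crosses with no sample at 0, and 4 of the 5 samples of cross 2183 lie between 65.1 and 83.1 CPM.

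PPO914 and PPOA also had their highest medians in cross 2183, at 2.83 and 1.99 CPM. PPO914 was lowest in cross 2165, where 9 samples lay between 0 and 0.529 CPM (median 0.175), all below each of the 5 samples of cross 2183 (2.46 to 18.7 CPM). Of the 55 pairs of crosses, 49 overlapped for PPO914 and 53 for PPOA, counts again without a share over all genes to set them against. PPOA was lowest in cross 2172, with 0 to 0.264 CPM (median 0.0974).

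PPOB was read mostly in cross 2155, the progeny of Crop52 and Admiral, and the filter on low counts partly fixed this, since 4 of the 5 samples with at least 5 PPOB reads were of that cross. This cross gave 42 of the 62 PPOB reads (67.7%), from 7.82% of all counts. The reads came from 8 of its 10 samples, at 0.388 and 0.183 CPM in the 2 high-bruising samples, 0, 0, 0.101, 0.216 and 0.485 CPM in the 5 low-bruising samples and 0.246, 0.320 and 0.502 CPM in the 3 intermediate ones. Elsewhere the reads were 9 in cross 2168, 5 in cross 2170, 3 in cross 2121, 2 in cross 2159 and 1 in cross 2158. None was found in crosses 2165, 2172, 2175, 2177 and 2183, which at 3 counts of the pooled total allows up to 0.0214, 0.0218, 0.0130, 0.0165 and 0.0306 CPM in that order, for counting error only.

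As a share of family reads, COB was the leading copy in 55 of the 100 samples, PPO576 in 28, POT32 in 16 and PPO914 in 1. The share of COB ran between 5.24% and 88.5% (median 44.4%), that of PPO576 between 0% and 81.6% (median 24.5%) and that of POT32 between 0.65% and 87.0% (median 15.3%). PPOA stayed at or under 5.80% and PPOB at or under 3.88%. So the family total could consist mainly of any of 3 copies, depending on the genotype.

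The make-up also varied with cross. COB led in all 8 samples of cross 2170 and in 9 of 13 in cross 2158, PPO576 in 4 of 5 in cross 2183 and 5 of 8 in cross 2175, and POT32 in 5 of 7 in cross 2168. In cross 2165 COB led in 5 of 9 samples and POT32 in the other 4. The pooled share of POT32 was 56.9% in cross 2168 and 50.3% in cross 2165, against 3.00% in cross 2183 and 5.79% in cross 2177. The variance of the share between crosses was 36.4% of the total for POT32 (permutation test, 100000 resamples, adjusted p = 0.00036 over the 6 members) and 24.6% for PPO576 (adjusted p = 0.0080, permutation test). For COB (18.4%, adjusted p = 0.0525), PPOA (18.2%, adjusted p = 0.0525) and PPO914 (17.1%, adjusted p = 0.0550) the same permutation test missed the threshold.

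Between high- and low-bruising samples, none of the 6 shares passed (two-sided permutation test of the difference of means, 100000 resamples, Benjamini-Hochberg over the 6 shares). The share of POT32 was 30.0 ± 24.8% in the high-bruising group and 20.3 ± 18.7% in the low-bruising group (SD, n = 33 and 41), a difference of 9.70 percentage points (permutation p = 0.0576, adjusted p = 0.121). With labels permuted within crosses the difference was 1.90 points (adjusted p = 0.748). That of COB was 43.0 ± 22.7% and 48.3 ± 20.6%, and that of PPO576 23.6 ± 22.3% and 27.4 ± 22.8%, in the high- and low-bruising group. PPO914 took 1.87 ± 1.32% of family reads in high-bruising samples and 2.88 ± 2.29% in low-bruising samples (permutation p = 0.0238, adjusted p = 0.121). Within crosses that difference was -1.36 points (permutation p = 0.0162, adjusted p = 0.0972).

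**Figure D4:**
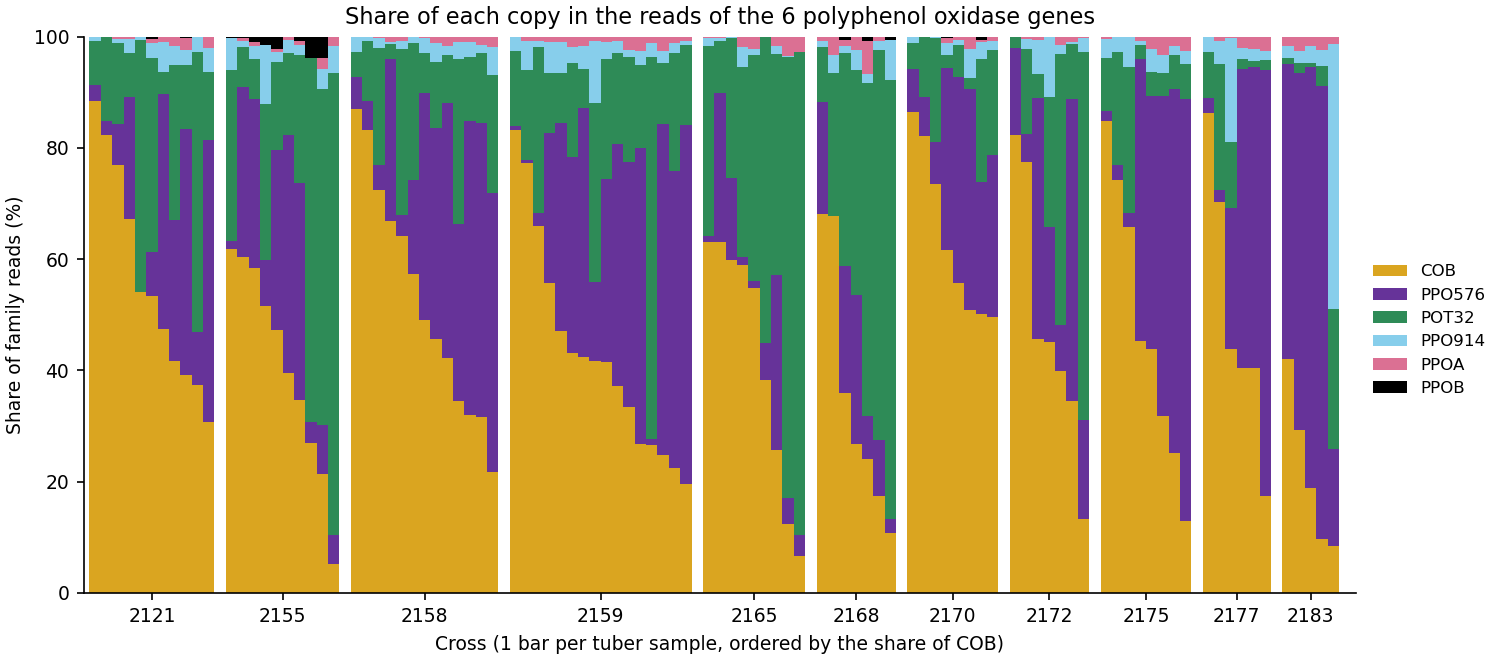
Share of each copy in the reads of the 6 genes (vertical axis, percent), 1 bar per sample, grouped by cross and ordered by the share of COB. POT32 takes large shares in crosses 2165 and 2168 and PPO576 in 4 of 5 samples of cross 2183, where PPO914 leads in the fifth.

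Whether copies rose and fell together was examined over the 100 samples on log2 CPM, for all 15 pairs of members. After Benjamini-Hochberg adjustment, 8 pairs passed (permutation test, 100000 resamples), all with a positive coefficient. The share of other gene pairs that would pass in these samples was not computed, so the count is not shown to be particular to the family. The closest pair was PPO576 and PPOA, with r = 0.76 and rho = 0.79 (permutation p = 1e-05 for each, the smallest these resamples can give, adjusted p = 3e-05). With cross means subtracted r was 0.75, without the 2 samples farthest from the PPO576 median 0.76, and r was positive in each of the 10 crosses with at least 6 samples (0.23 to 0.92).

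PPO576 was also related to PPO914 (r = 0.61, rho = 0.64, permutation p = 1e-05 for each, adjusted p = 3e-05) and to COB (r = 0.57, rho = 0.59, with the same permutation p and adjusted p). With cross means subtracted these values were r = 0.48 and r = 0.48, and r was positive in 10 and 9 of the 10 crosses. Without the 2 samples farthest from the median of the first gene, r was 0.59 for PPO576 and PPO914 and 0.56 for COB and PPO576. COB and PPO914 had r = 0.54 and rho = 0.59 (permutation p = 1e-05 for each, adjusted p = 3e-05), with 0.39 within crosses. PPOA and PPO914 had r = 0.60 and rho = 0.61 (permutation p = 1e-05 for each, adjusted p = 3e-05), with 0.45 within crosses. COB and PPOA followed with r = 0.42 and rho = 0.42 (permutation p = 3e-05 for each, adjusted p = 7.5e-05), with 0.29 within crosses.

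POT32 stood in a looser relation to the 2 other abundant copies. Its r was 0.18 with COB (rho = 0.19, permutation p = 0.0668 and 0.0642, adjusted p = 0.111 and 0.107) and 0.16 with PPO576 (rho = 0.15, permutation p = 0.121 and 0.134, adjusted p = 0.182 and 0.201). Within single crosses its r with PPO576 lay anywhere between -0.83 and 0.67. It did pass with PPOA (r = 0.35, rho = 0.31, adjusted p = 0.0006 and 0.00381, permutation test) and PPO914 (r = 0.35, rho = 0.30, adjusted p = 0.0009 and 0.00523, permutation test), at 0.32 and 0.44 with cross means subtracted. The 5 pairs with PPOB, whose counts were nearly all 0, had r between -0.14 and 0.03 and did not pass. The tests between pairs of coefficients were not run, so POT32 is not shown to differ in this from COB.

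The number of PPOA reads per PPO576 read, from the same counts as the correlation, was not steady. In the 64 samples with at least 50 PPO576 reads, PPOA had a median of 2.90 reads per 100 PPO576 reads (pooled 3.34), and the ratio ran between 0 and 71.6. The highest ratio was that of progeny 4 of cross 2165, a sample with 4.31 CPM of PPO576, 3.09 CPM of PPOA and the highest POT32 level of that cross. The other 36 samples held 636 PPO576 reads and 114 PPOA reads, and PPOA was at 0 in 17 of them, so PPOA was also read where PPO576 was low. Whether some reads of one copy were assigned to another was not tested.

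**Figure D5:**
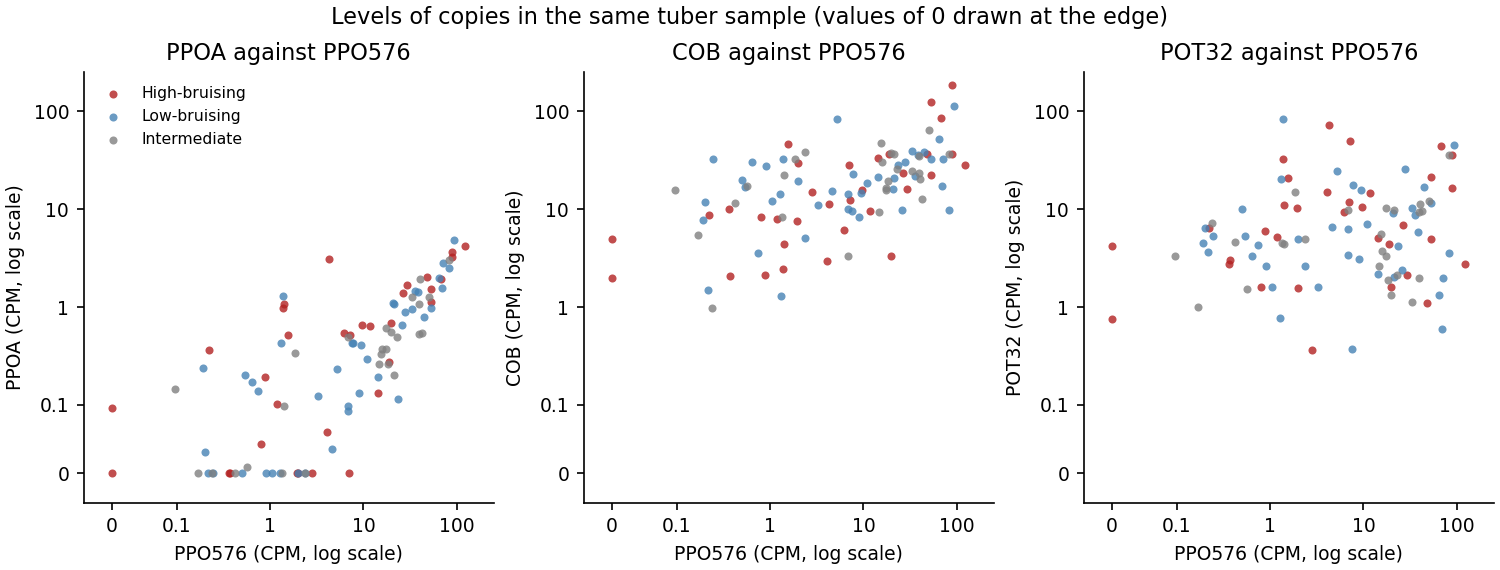
CPM of PPOA, COB and POT32 against the CPM of PPO576 in the same sample (log axes, values of 0 drawn at the edge), 1 point per sample coloured by bruising group. PPOA and COB rise with PPO576 (r = 0.76 and 0.57 on log2 CPM) and POT32 shows little relation (r = 0.16).

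The gene most like each member over the 100 samples was looked for among 17199 or 17200 genes with a mean of at least 1 CPM, by Pearson's r of log2 CPM, as a description without a test. For PPOA it was PPO576 (r = 0.76). For PPO576 it was PGSC0003DMG400017508 (r = 0.72, rho = 0.77, mean 108 CPM) and for PPO914 PGSC0003DMG400031377 (r = 0.68, rho = 0.63). For COB it was PGSC0003DMG400029937 (r = 0.58), for POT32 PGSC0003DMG400002552 (r = 0.54) and for PPOB PGSC0003DMG400005860 (r = 0.49). The files pair these identifiers with no name. PPOA itself has a mean under 1 CPM and so could not be named for PPO576.

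The steps that supply phenols were read from the 5 genes of the study's list that fall there or among the peroxidases, a second class of phenol-oxidising enzymes. None of the 5 passed between high- and low-bruising samples, within crosses or for either score. HQT, whose enzyme makes chlorogenic acid, was the most abundant, with a median of 199 CPM in high-bruising samples (101 to 392), 245 CPM in low-bruising samples (112 to 329) and 212 CPM in intermediate samples (86.0 to 415). It differed by -0.20 on the log2 scale between the groups (SE 0.10, unadjusted p = 0.0502, edgeR adjusted p = 0.406) and by -0.06 (SE 0.10) with cross as a term. Its slope was -0.15 per score point on the score of the sequenced tubers (SE 0.05, unadjusted p = 0.00357, edgeR adjusted p = 0.0724) and -0.09 on that of the other replicate (SE 0.04, edgeR adjusted p = 0.251). Both slopes were fitted without cross as a term. On the score of the sequenced tubers, 18.5% of all genes had an unadjusted p under 0.05.

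The ligases 4CL and 4CL2, which activate coumaric acid for the later steps, had medians of 71.0 and 80.3 CPM in the high-bruising group and 71.2 and 91.5 CPM in the low-bruising group. Their differences were -0.13 (SE 0.16) and -0.15 (SE 0.20) without cross as a term, and 0.13 (SE 0.13) and 0.17 (SE 0.14) with it. The slopes that follow were fitted without this term. The slope of 4CL on the score of the other replicate was -0.19 per score point (SE 0.07, unadjusted p = 0.00795, edgeR adjusted p = 0.102), larger than that of HQT. These were the 2 of the 5 genes with an unadjusted p under 0.05 on that score, a level that 18.7% of all genes reached. On the score of the sequenced tubers the slope of 4CL was -0.15 (SE 0.08, edgeR adjusted p = 0.279). The slopes of 4CL2 were -0.13 (SE 0.09) on the score of the sequenced tubers and -0.15 (SE 0.09) on the other. PAL, an entry enzyme of the pathway, and PEROX, a peroxidase, were at most at 2.02 and 2.34 CPM, and differed by 0.68 (SE 0.42, edgeR adjusted p = 0.515) and -0.24 (SE 0.42, edgeR adjusted p = 0.866). Between crosses 3 of the 5 passed, 4CL, 4CL2 and HQT, against the 67.1% of all genes given above.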

How the data were processed

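Tubers were bruised by a falling weight, and RNA of the impact site was sequenced from 1 plant replicate of each of 100 genotypes. The authors checked reads with FastQC 0.11.7, removed ribosomal reads with SortMeRNA, trimmed with BBDuk, aligned to the PGSC-DM genome with STAR 2.6.1 and deposited the whole-number counts of uniquely aligned reads per gene, without normalisation and after a filter on low counts, which left genes with at least 5 reads in at least 5 samples. All sample columns were used. Scores of each tuber, on a scale up to 5, came from the study's supplementary score sheet, and groups came from the sample titles.

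Counts were analysed with edgeR 4.0.16 in R 4.3.3 (TMM, quasi-likelihood F test, Benjamini-Hochberg over all 25163 genes, threshold 0.05), without further filter. The standard error is the log2 difference divided by the square root of F, and intervals are at 95%. The comparisons were high against low bruising without and with cross as a term, a joint test of the 11 crosses, and slopes on the score of the sequenced and of the other replicate. Log2 CPM for correlations used a prior count of 2. Permutation tests used numpy 2.4.6 with 100000 resamples, or 10000 for shares within crosses. The edgeR step was tested on simulated data. Alternatives were DESeq2 1.42.0, limma-voom (limma 3.58.1), other size factors, the filterByExpr filter, other samples or terms, each cross or sample left out, other prior counts and other denominators.

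The genes named are the 6 members, 5 genes of phenol supply and peroxidases, 5 patatin genes, and the gene most like each member. The members and lists were chosen with earlier results of these data known. No 2 samples had identical counts. At the lowest total, 6832655 counts, differences of genes near 1 CPM rest on few reads. Upper limits set by a count of 0 cover counting error only. Gene identifiers matched no entry of the reference table used, so lengths and sequences are not given. Positions were taken from the study's list, for the chromosome and order only.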

Additional observations from a re-analysis of the deposited data

Results flagged for a closer look

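In 40 checks of members within crosses of 4 to 10 samples, 4 found 1 sample standing apart from the others on the log2 scale, where chance gives about 5% of checks. Of these, 2 concern 1 genotype, the intermediate progeny 6 of cross 2183. Its PPO576 level of 6.84 CPM was the lowest of the 5 samples, with the next at 65.1 CPM, and its PPO914 level of 18.7 CPM the highest, with the next at 2.89 CPM. In the intermediate progeny 7 of cross 2177, PPO914 reached 15.7 CPM, with the next of the 6 samples at 2.64 CPM. In cross 2155 the low-bruising progeny 7 had 0 CPM of PPO914, the next of the 10 samples being at 0.356 CPM. The library of progeny 7 had 8525099 counts, in which 0.356 CPM would be few reads, so this 0 cannot be told apart from counting error.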

How the results depend on the processing

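No member passed in the comparisons with bruising, and the 5 members other than PPOB passed between crosses, in each alternative run (filterByExpr, which keeps 18753 genes, drops PPOB). The sign of several uncalled values turned. For high against low bruising, limma-voom gave -0.35 for COB and -0.24 for PPO576. Without cross 2159 COB was -0.16 and PPO576 -0.30. PPO576 was -0.079 without cross 2170 and -0.28 without cross 2177. PPO914 was 0.063 without cross 2121 and 0.11 without cross 2165. Leaving out each of the 74 samples in turn (leave-one-out, with the spread of the full fit), the range was -0.14 to 0.31 for COB, -0.13 to 0.25 for PPO576, -0.21 to 0.90 for PPOB, 0.23 to 0.75 for POT32, 0.28 to 0.69 for PPOA and -0.77 to 0.0086 for PPO914. POT32 reached an unadjusted p of 0.0378 without progeny 2 of cross 2159 (edgeR adjusted p = 0.383). Within crosses, POT32 was 0.18 with limma-voom. With cross as a term, the slopes on the score of the sequenced replicate were 0.050 for COB, 0.25 for PPO576 and 0.012 for PPO914, and those on the other score 0.35 for PPO576, 0.34 for PPOA and 0.26 for PPO914. With limma-voom the slopes on the other score were 0.086 for PPO576 and 0.26 for PPOA. Within crosses, the difference in the share of family reads was 4.09 points for PPO576 and 0.090 for PPOB. With cross means subtracted, r with PPOB was 0.17 for COB, 0.16 for PPO576, 0.14 for PPOA and 0.055 for PPO914. The cause of these turns was not tested.

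The replicate numbers mark which plant replicate of a genotype was sequenced and pair no samples. With the number as a replicate block, 0 members passed, COB was 0.06, PPO576 0.11 and POT32 0.38, and the mean deviations of same-numbered high- and low-bruising samples had r = -0.03. The 2 other alternatives chosen after seeing the data, the interaction with cross and a score over both replicates, called 0 members. Depth limited PPOB and PPOA most, with medians of 0 and 6.5 reads per sample.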
